A study of Mus musculus with 8 samples.

Results

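The mRNAs of 45 protein components of the spliceosome were followed in mouse embryonic stem cells: proteins of the U4/U6.U5 tri-snRNP, the Prp19 complex (NTC) and its related proteins (NTR), and factors that join the activated and catalytic spliceosome. The genes were taken by name from a given list and are 45 of the 55291 genes in the count tables. The list does not hold every subunit of these assemblies: Snrnp200, Ddx23 and Cd2bp2 of U5, Snu13 of U4/U6 and Ctnnbl1 of the NTC are among 49 other spliceosome genes used for comparison. All 45 were among the 16371 genes with enough counts to be tested, and between 157 and 16890 reads were counted for each of them in each library.

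RNA-seq was done in 2 mouse ES cell lines, DHX35-dTAG and GPATCH1-dTAG, in which the named protein carries a degron tag built on a mutant FKBP12. Each line received either the solvent DMSO or the degrader dTAG-13 (200 nM, 4 h), and every group had 2 libraries, 8 in all, with total counts between 12014203 and 14994173. The lines were raised from single colonies, the labels do not say which clone each library came from, no untagged line was given dTAG-13 in these samples, and loss of the tagged proteins is not measured by RNA counts. The labels call the cells E14, while the growth protocol printed with them speaks of R1 cells.

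The tri-snRNP brings the U4, U5 and U6 small nuclear RNAs to a pre-mRNA on which U1 and U2 already sit. Once U1 and U4 have left, the NTC and NTR hold U6 in its catalytic fold inside PRPF8, and further factors come and go as the branching and exon ligation reactions are carried out. DHX35 is a DEAH-box helicase and GPATCH1 a G-patch protein that binds it, and both are found on catalytic spliceosomes.

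The cells carried the RNA of pluripotent cells. The 10 pluripotency genes examined summed to between 5730 and 6409 CPM (the count as a share of the library size after TMM scaling) in the 8 libraries, with Tfcp2l1 the most abundant of them. The 6 fibroblast or feeder genes summed to 2.56 to 5.76 CPM, and 2 of them had no count in any library. The 5 primitive endoderm genes reached 5.25 to 7.56 CPM and the 4 genes of early germ layers 10.6 to 14.1 CPM. The 4 trophoblast genes summed to 28.9 to 41.7 CPM, most of it Tfap2c, and 2 of the 4 lay under 1 CPM.

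The tagged genes were checked next. Dhx35 stood at 72.3 and 80.4 CPM in the DHX35-dTAG line with DMSO and at 84.8 and 79.5 CPM with dTAG-13, against 58.1 and 58.4 CPM in the GPATCH1-dTAG line with DMSO and 59.3 and 64.9 CPM with dTAG-13. Every library of the DHX35-dTAG line was above every library of the other line. With DMSO the log2 difference of the GPATCH1-dTAG line from the DHX35-dTAG line was -0.39 ± 0.094 (SE) and did not pass, with an adjusted p of 0.291 by edgeR's quasi-likelihood test, Benjamini-Hochberg adjusted. Gpatch1 stood at 25.6 and 23.4 CPM with DMSO and 23.2 and 23.7 CPM with dTAG-13 in the DHX35-dTAG line, and at 7.31 and 6.90 CPM with DMSO and 7.06 and 7.20 CPM with dTAG-13 in the GPATCH1-dTAG line. The tagged line thus held less Gpatch1 RNA before any treatment: with DMSO the log2 difference between the lines was -1.78 ± 0.12 (SE), with an adjusted p of 0.000643 by edgeR's quasi-likelihood test, Benjamini-Hochberg adjusted.

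Replicate 1 of the DHX35-dTAG line with DMSO stood apart from the other 7 libraries. Its mean correlation with the others was 0.976, where theirs lay between 0.988 and 0.990. Small nuclear and nucleolar RNA took 0.366% of its counts, against 0.120% to 0.143% elsewhere, and mitochondrial mRNA 0.272%, against 0.758% to 1.13%. It was the highest of the 8 libraries for 14 of the 45 splicing factors and the lowest for 22. For 36 of 45 (80%) it was thus at an end of the range, a position it held for 59.8% of all tested genes and 69.4% of the 8140 tested genes whose mean level lay within that of the 45, from 13.7 to 968 CPM. Results that rest on this library are given with and without it.

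**Figure D1:**
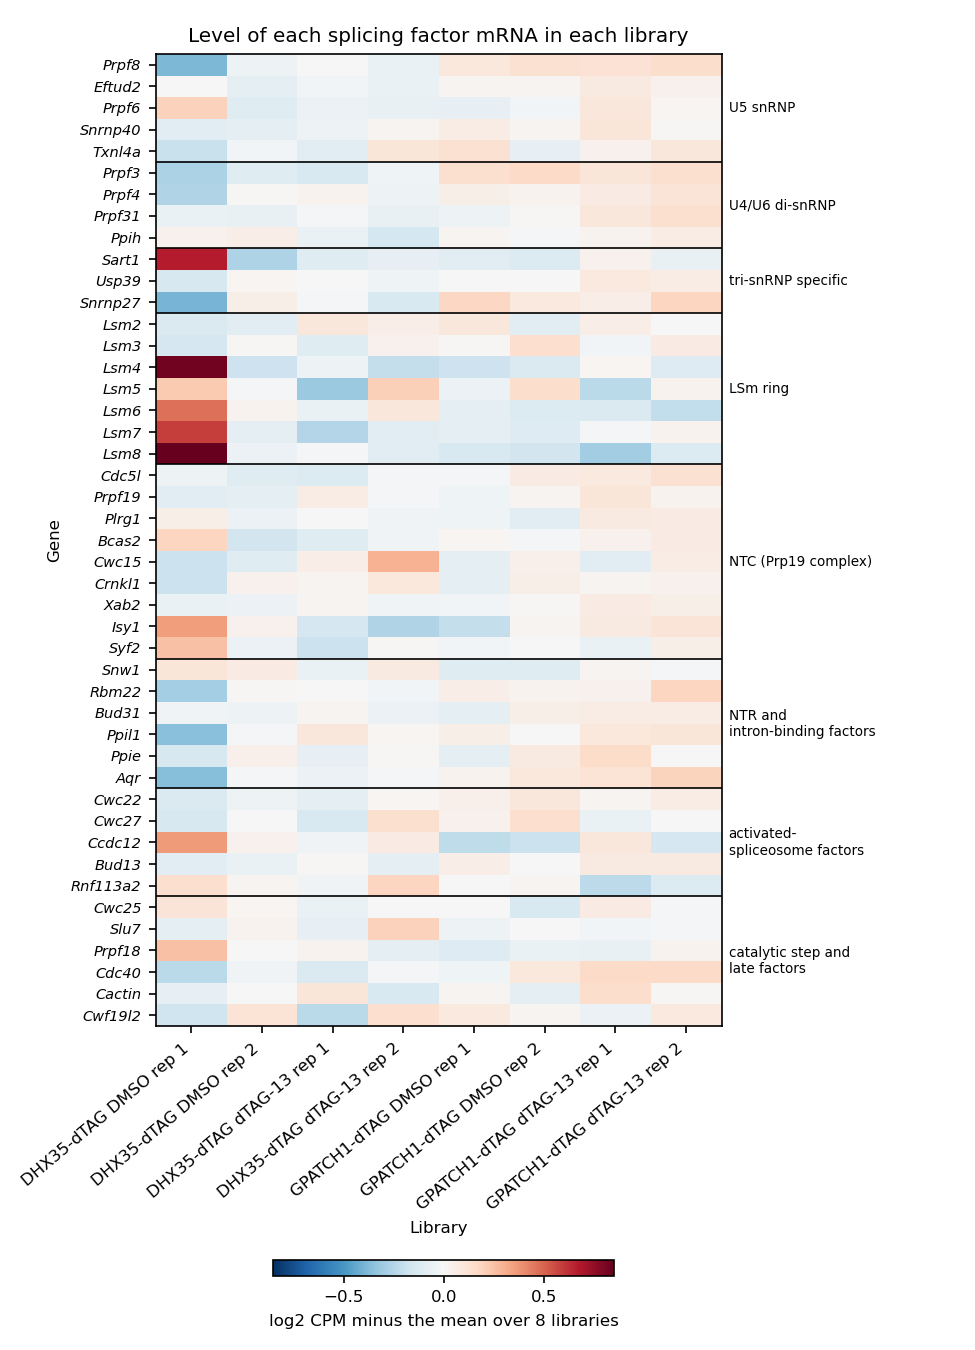
Level of each of the 45 mRNAs (rows, grouped by role) in each of the 8 libraries (columns), as log2 CPM minus the gene's mean over the libraries. The first column, replicate 1 of DHX35-dTAG with DMSO, holds the strongest colours: Lsm4, Lsm8, Lsm7, Lsm6 and Sart1 are high there, and Prpf8, Snrnp27, Aqr and Ppil1 low.

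None of the 45 mRNAs passed the test after dTAG-13 in either line. In the DHX35-dTAG line 0 of 45 had an adjusted p under 0.05 by edgeR's quasi-likelihood test, beside 0% of all genes tested, and DESeq2 also called 0 of 45. At an unadjusted p under 0.05 there were 3 of 45 (6.67%), where the share of all genes was 5.39%. The replicates are not stated to be separate cultures, so these p-values measure the spread between libraries that may be technical. With 2 libraries against 2, an exact permutation test of a single gene cannot give a p under 0.333.

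The fitted changes in the DHX35-dTAG line were small. Their median was a log2 fold change of 0.023, against -0.0077 for all genes tested and 0.014 for the genes in the same range of expression, and 28 of 45 (62.2%) were above 0, beside 48.5% of all genes and 53.2% of those in that range. The highest was 0.32 and the lowest -0.53. For 43 of the 45 the 95% interval lay within a change of 2-fold in either direction. Both dTAG-13 libraries were above both DMSO libraries for 6 of 45 (13.3%), where 14.6% of all genes were, and below them for 4 (8.89%), where 14.1% were. Among genes in the same range of expression these shares were 16% above and 10.1% below.

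Without replicate 1 of DHX35-dTAG with DMSO, the 45 log2 fold changes ran only from -0.23 to 0.29, all 45 intervals lay within 1.5-fold, and again 0 of 45 passed edgeR's test, beside 0.0117% of all genes. At an unadjusted p under 0.05 there were then 2 of 45 (4.44%), where the share of all genes was 4.60%. The median was then 0.0145 and 24 of 45 (53.3%) were above 0, as were 50.6% of all genes and 53.5% of those in the same range of expression. Where replicate 2 of the same group was left out instead, so that replicate 1 stood alone for DMSO, 17 of the 45 (37.8%) passed, as did 4949 genes in all (28.8%). Among those 17 were Lsm4, Lsm6, Lsm7, Lsm8, Sart1 and Isy1, lower with dTAG-13, and Prpf8, Aqr and Ppil1, higher.

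In the GPATCH1-dTAG line 0 of 45 passed edgeR's quasi-likelihood test, beside 0% of all genes, and DESeq2 called 0 of 45. At an unadjusted p under 0.05 there were again 0 of 45, against 2.97% of all genes. With replicate 1 of DHX35-dTAG with DMSO left out of the model, 0 of 45 passed edgeR's test, beside 0.299% of all genes, and 2 (Prpf31 and Plrg1) had an unadjusted p under 0.05, against 8.41% of all genes. Most values were nonetheless slightly higher with dTAG-13. The median log2 fold change was 0.048, against 0.0029 for all genes and 0.016 for genes in the same range of expression, and 35 of 45 (77.8%) were above 0 (33 to 35 under the other scalings tried). Above 0 were also 50.8% of all genes, 57.8% of those in the same range and 34 of the 49 other spliceosome genes (69.4%). Both dTAG-13 libraries were above both DMSO libraries for 22 of 45 (48.9%), where this held for 21.5% of all genes and 27.6% of those in the same range. They were below them for 4 (8.89%), where 20.3% of all genes and 17.3% of those in that range were. Of the 49 other spliceosome genes, 19 had both dTAG-13 libraries above both DMSO libraries and 5 had them below. Because these counts describe chosen lists, no test was made of them.

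Summed over the 45 genes, the level was 4504 and 4585 CPM with DMSO and 4700 and 4720 CPM with dTAG-13 in the GPATCH1-dTAG line. In the DHX35-dTAG line the sums were 4278 and 4314 CPM with DMSO and 4374 and 4384 CPM with dTAG-13. The groups did not overlap in either line, and the 4 libraries of the GPATCH1-dTAG line were the highest. Sums of other genes were not set beside these. In the DHX35-dTAG line only 6 of the 45 genes singly had both dTAG-13 libraries above both DMSO libraries, and 4 below. Prpf8, the highest of the 45, measured 738 CPM in replicate 1 of that line with DMSO. In its other libraries Prpf8 measured 923 to 958 CPM. The LSm mRNAs summed to 398 CPM in that replicate and 274 to 282 CPM in the others. The share of counts taken by the 2 most abundant genes also differed between these libraries: in the GPATCH1-dTAG line it was 4.23% and 20.9% with DMSO and 1.27% and 2.02% with dTAG-13, and in the DHX35-dTAG line 3.15% and 1.54% with DMSO and 11.98% and 20.2% with dTAG-13. With those genes left out of the library sizes, a step chosen after seeing the data, the median log2 fold change of the 45 in the GPATCH1-dTAG line was 0.042. Human RNA was added to the samples before sequencing, but its counts are not used here, so every level is relative to the mouse RNA of its own library, and fewer cells and less RNA per cell cannot be told apart.

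Whether the 2 lines responded differently was tested in the same model. This passed for 0 of 45 by edgeR's test, beside 0% of all genes, and for 0 of 45 by DESeq2. At an unadjusted p under 0.05 there was 1 of 45 (Isy1), where 3.91% of all genes were past it.

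**Figure D2:**
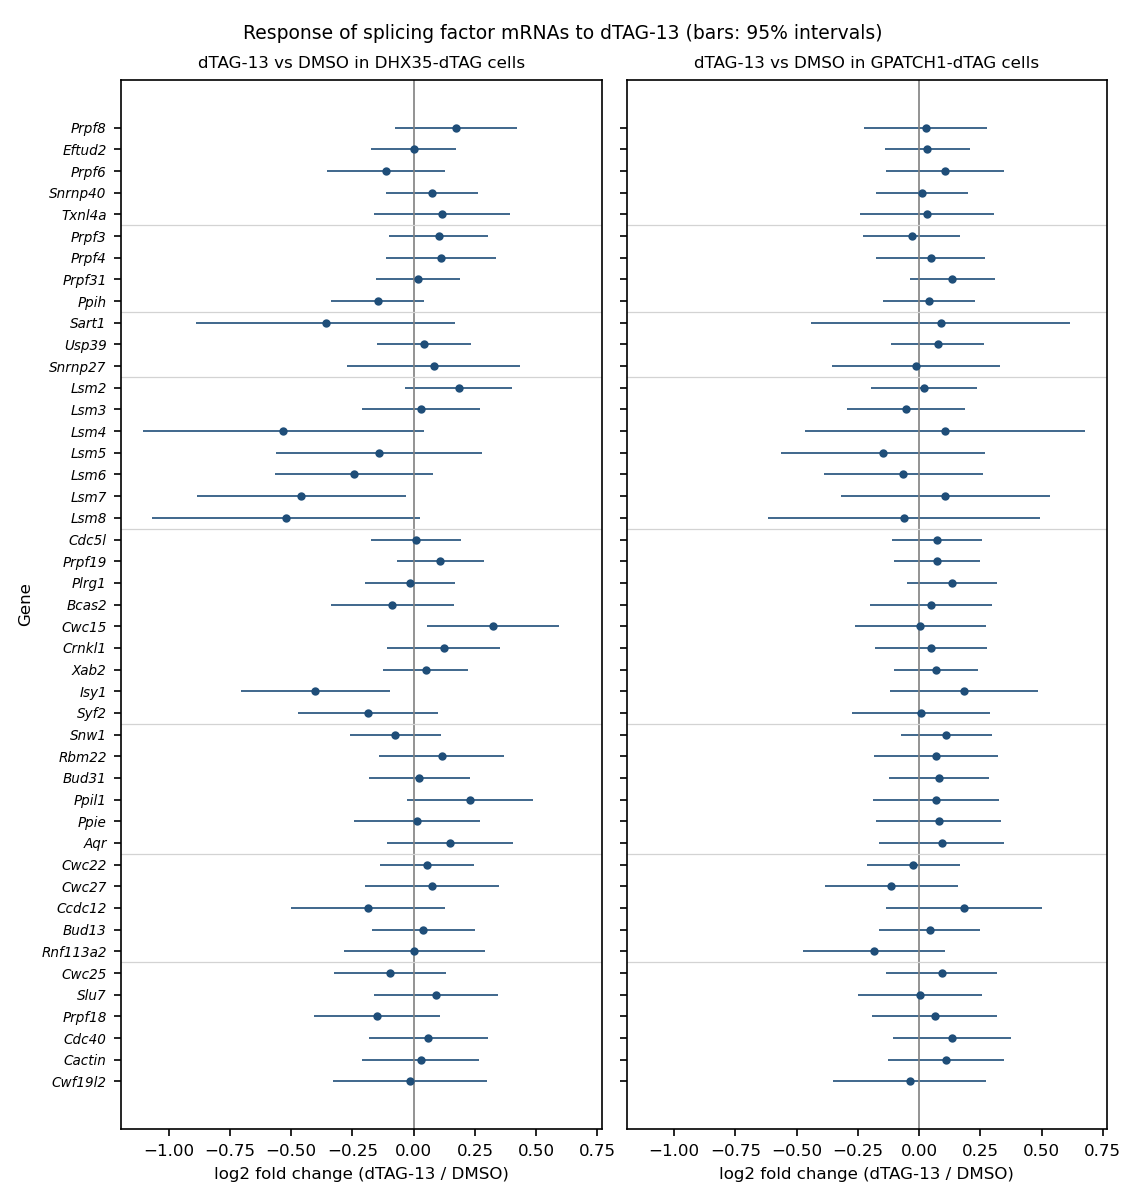
Fitted log2 fold change of each mRNA after dTAG-13 (points) with its 95% interval (bars), in the DHX35-dTAG line (left) and the GPATCH1-dTAG line (right), 2 libraries per group. Every interval in the right panel crosses 0, and the widest in the left panel belong to Lsm4 and Lsm8.

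The U5 snRNP is the particle around PRPF8. Prpf8, which forms the cavity that holds the catalytic RNA, had the highest level per length of the 45, at 130 ± 14.5 CPM per kb of exon (SD, n = 8). It lies on mouse chromosome 11 (75486816 to 75509449, GRCm38), and 13200 reads were counted for it per library on average. Prpf8 measured 738 and 932 CPM with DMSO and 958 and 923 CPM with dTAG-13 in the DHX35-dTAG line, and 1023 and 1053 CPM with DMSO and 1047 and 1067 CPM with dTAG-13 in the GPATCH1-dTAG line. The single low value was replicate 1 of DHX35-dTAG with DMSO, and treated and untreated libraries overlapped in both lines. The log2 fold change with dTAG-13 was 0.17 ± 0.11 (SE) in the DHX35-dTAG line, and 0.014 without that replicate.

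Txnl4a, the small thioredoxin-like U5 protein known in yeast as Dib1, was the least abundant of the group at 5.89 ± 0.451 CPM per kb (SD, n = 8). It measured 23.2 and 26.0 CPM with DMSO and 24.9 and 28.5 CPM with dTAG-13 in the DHX35-dTAG line, and 28.9 and 25.2 CPM with DMSO and 27.2 and 28.3 CPM with dTAG-13 in the GPATCH1-dTAG line. These groups overlapped. Prpf8 was thus 22.0 times as abundant per length as Txnl4a, although U5 holds them together in a single particle. All 5 listed U5 mRNAs had fitted changes above 0 in the GPATCH1-dTAG line under each scaling tried, the largest of them 0.11 for Prpf6. None of the 5 passed the test in either line. With each library left out in turn, the values in the GPATCH1-dTAG line fell as low as -0.036 for Snrnp40 and -0.065 for Txnl4a. Prpf6 fell as low as 0.065 in that line, and Prpf8 and Eftud2 also stayed above 0. Of the U5 genes outside the list, Snrnp200 and Ddx23 were also above 0 there, at 0.063 and 0.074, while Cd2bp2 had both treated libraries below both untreated libraries, with a log2 fold change of -0.25 ± 0.093 (SE). The adjusted p of Cd2bp2 was 1.00 by edgeR's quasi-likelihood test, and its unadjusted p was 0.0243.

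The U4/U6 di-snRNP is represented by 4 mRNAs. Ppih, a cyclophilin that binds PRPF4, was the most abundant at 31.8 ± 1.52 CPM per kb and Prpf3, which clasps the U4/U6 duplex, the least at 15.3 ± 1.64 CPM per kb (SD, n = 8), a ratio of 2.08. With the longest transcript as the length Prpf4 was the least abundant, at 23.2 CPM per kb, and Prpf3 stood at 29.5. Prpf3 measured 71.3 and 80.1 CPM with DMSO and 78.7 and 83.8 CPM with dTAG-13 in the DHX35-dTAG line, and 94.6 and 96.5 CPM with DMSO and 92.6 and 94.4 CPM with dTAG-13 in the GPATCH1-dTAG line. All 4 libraries of the GPATCH1-dTAG line were above all 4 of the other line, while treatment moved Prpf3 little. Between the lines with DMSO its log2 difference was 0.33 ± 0.089 (SE), with an unadjusted p of 0.00434 and an adjusted p of 0.323 by edgeR's quasi-likelihood test, Benjamini-Hochberg adjusted. Without replicate 1 of DHX35-dTAG with DMSO the difference was 0.25.

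Prpf31, which clamps the U4 stem and is mutated in a form of inherited retinal degeneration, had the lowest p among the mRNAs that were higher with dTAG-13 in the GPATCH1-dTAG line. It measured 137 and 143 CPM there with DMSO and 152 and 156 CPM with dTAG-13. The DHX35-dTAG libraries were flat, at 136 and 136 CPM with DMSO and 140 and 136 CPM with dTAG-13. The log2 fold change in the GPATCH1-dTAG line was 0.14 ± 0.076 (SE), with an adjusted p of 1.00 by edgeR's quasi-likelihood test. Ppih measured 61.6 and 62.5 CPM with DMSO and 57.8 and 54.2 CPM with dTAG-13 in the DHX35-dTAG line, and 61.1 and 59.8 CPM with DMSO and 61.5 and 62.9 CPM with dTAG-13 in the GPATCH1-dTAG line. The treated libraries of Ppih were the lower ones in the first line and the higher ones in the second, and neither change passed the test.

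Of the 3 proteins specific to the tri-snRNP, Usp39, an inactive ubiquitin protease, was the most abundant at 37.9 ± 1.71 CPM per kb (SD, n = 8). It measured 84.4 and 93.8 CPM with DMSO and 93.0 and 90.4 CPM with dTAG-13 in the DHX35-dTAG line, and 92.3 and 92.7 CPM with DMSO and 98.1 and 96.8 CPM with dTAG-13 in the GPATCH1-dTAG line. The groups overlapped in the first line and were apart in the second by a few CPM. Snrnp27 was the least abundant of the 3 at 9.94 ± 1.22 CPM per kb (SD, n = 8). It measured 13.8 and 18.8 CPM with DMSO and 18.0 and 16.5 CPM with dTAG-13 in the DHX35-dTAG line, and 20.5 and 19.2 CPM with DMSO and 18.8 and 20.6 CPM with dTAG-13 in the GPATCH1-dTAG line, so that the groups overlapped in both.

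Sart1, the tri-snRNP scaffold that links U5 to U4/U6, is named here because of its values. It measured 169 CPM in replicate 1 and 88.4 CPM in replicate 2 of DHX35-dTAG with DMSO, and 98.9 and 101 CPM with dTAG-13. In the GPATCH1-dTAG line it measured 99.9 and 97.7 CPM with DMSO and 109 and 102 CPM with dTAG-13. A single library was high, 1.70 times the mean of the other 7, whose coefficient of variation (SD over mean) was 6.04%. The log2 fold change in the DHX35-dTAG line was -0.36 ± 0.23 (SE) with this library and 0.18 without it.

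The LSm ring, which caps the tail of U6 RNA, varied most only where replicate 1 of DHX35-dTAG with DMSO was counted. Its median coefficient of variation (SD over mean) was 16.2% over 8 libraries, the highest of the 8 roles, and 5.98% over the other 7, where that of the factors of the activated spliceosome was 6.82%. Among its 7 mRNAs Lsm4 was the most abundant at 86.9 ± 25.7 CPM per kb and Lsm8, the subunit that sets the nuclear ring apart from the cytoplasmic ring, the least at 5.31 ± 1.64 CPM per kb (SD, n = 8), a ratio of 16.4. Lsm4 measured 155 and 77.8 CPM with DMSO and 85.0 and 76.1 CPM with dTAG-13 in the DHX35-dTAG line, and 77.5 and 80.5 CPM with DMSO and 88.7 and 81.1 CPM with dTAG-13 in the GPATCH1-dTAG line. Lsm8 measured 39.1 and 21.0 CPM with DMSO and 21.4 and 20.3 CPM with dTAG-13 in the DHX35-dTAG line, and 19.7 and 19.4 CPM with DMSO and 17.7 and 19.95 CPM with dTAG-13 in the GPATCH1-dTAG line. In both genes the first DMSO library of the DHX35-dTAG line was alone above the rest, at 1.92 times the mean of the other 7 for Lsm4 and 1.96 times for Lsm8.

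Lsm6 and Lsm7 had the same shape. Lsm7 measured 44.4 and 27.96 CPM with DMSO and 24.9 and 27.7 CPM with dTAG-13 in the DHX35-dTAG line, and 27.9 and 27.3 CPM with DMSO and 29.3 and 30.2 CPM with dTAG-13 in the GPATCH1-dTAG line. Lsm6 measured 53.2 and 39.2 CPM with DMSO and 36.9 and 41.0 CPM with dTAG-13 in the DHX35-dTAG line, and 36.2 and 35.5 CPM with DMSO and 35.3 and 33.3 CPM with dTAG-13 in the GPATCH1-dTAG line. Again replicate 1 of DHX35-dTAG with DMSO was the high one, at 1.59 and 1.45 times the mean of the others. For Lsm7 replicate 2 was also above both treated libraries, but by less than 1 CPM over the nearer of them.

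Lsm2 and Lsm5 differed from these. Lsm2 measured 46.4 and 47.6 CPM with DMSO and 54.1 and 52.7 CPM with dTAG-13 in the DHX35-dTAG line, and 54.3 and 47.5 CPM with DMSO and 52.7 and 50.6 CPM with dTAG-13 in the GPATCH1-dTAG line. Its replicates lay close together in the DHX35-dTAG line, with the treated libraries above, and overlapped in the other line. Lsm5 measured 20.8 and 17.6 CPM with DMSO and 14.3 and 20.4 CPM with dTAG-13 in the DHX35-dTAG line, and 17.1 and 19.7 CPM with DMSO and 15.1 and 18.2 CPM with dTAG-13 in the GPATCH1-dTAG line. It was the noisiest gene of the 45 once replicate 1 of DHX35-dTAG with DMSO was set aside, with a coefficient of variation of 12.8% over 7 libraries, and its groups overlapped in both lines.

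None of the 7 passed the test. In the DHX35-dTAG line the log2 fold changes were -0.53 ± 0.25 (SE) for Lsm4, -0.52 ± 0.24 for Lsm8, -0.46 ± 0.19 for Lsm7 and -0.24 ± 0.14 for Lsm6, each with an adjusted p of 0.715 by edgeR's quasi-likelihood test, Benjamini-Hochberg adjusted. The median of the 7 was -0.24. Without replicate 1 of DHX35-dTAG with DMSO the values were 0.052, -0.005, -0.089 and -0.008 in the same order, and the median -0.0076. Summed over the ring, the level was 398 CPM in that replicate and between 274 and 282 CPM in the other 7 libraries. The part of the small nuclear RNA and mitochondrial RNA shares of that library in these values was not tested. Lsm1, which replaces Lsm8 in the cytoplasmic ring and is not one of the 45, measured 19.7 CPM in the same replicate and 23.3 to 25.4 CPM in the others. Lsm2 and Lsm3 were also lowest there. Lsm2 measured 46.4 CPM against 47.5 to 54.3 CPM in the others, and Lsm3 38.3 CPM against 39.3 to 46.8 CPM. That replicate was the lowest library for 37.7% of tested genes in the same range of expression.

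**Figure D3:**
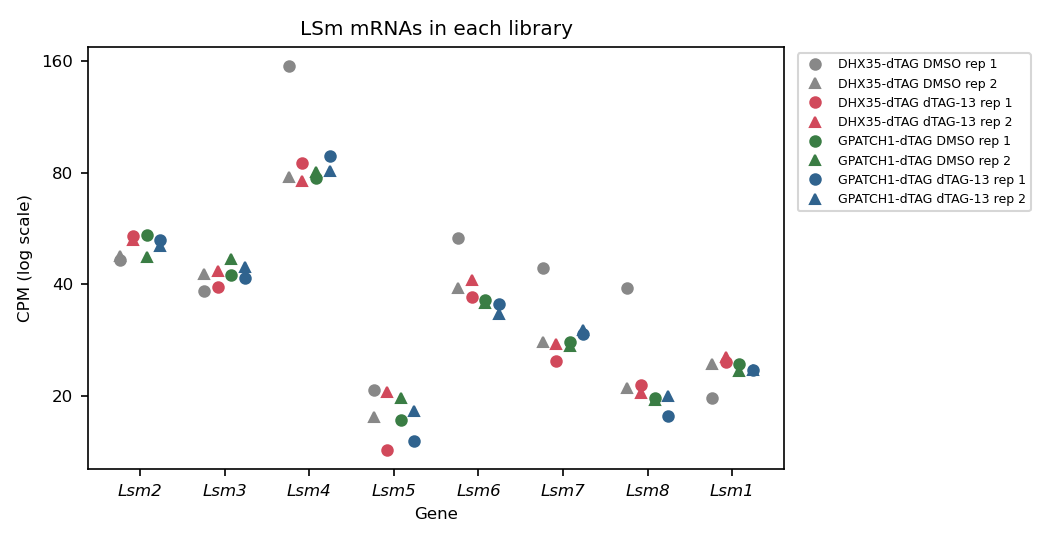
CPM (log scale) of the 7 mRNAs of the nuclear LSm ring and of Lsm1 in each library; colour marks the group, circles replicate 1 and triangles replicate 2. For Lsm4, Lsm6, Lsm7 and Lsm8 the grey circle, replicate 1 of DHX35-dTAG with DMSO, lies above all other points. For Lsm5 it lies narrowly above them, and for Lsm1, Lsm2 and Lsm3 below them.

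The 9 NTC mRNAs spanned the widest range. Cdc5l, the Myb-like core protein of the complex, was the most abundant at 106 ± 6.57 CPM per kb, and Isy1 the least abundant of all 45 at 4.18 ± 0.587 CPM per kb (SD, n = 8), a ratio of 25.4. Cdc5l measured 339 and 325 CPM with DMSO and 323 and 347 CPM with dTAG-13 in the DHX35-dTAG line, and 348 and 368 CPM with DMSO and 371 and 382 CPM with dTAG-13 in the GPATCH1-dTAG line. Its groups overlapped in the first line and were separated in the second. In the GPATCH1-dTAG line the fitted changes of all 9 were above 0, from 0.0053 for Cwc15 to 0.18 for Isy1 (8 of 9 under at least 1 other scaling). With each library left out in turn, Cwc15 fell as low as -0.079, Syf2 -0.047 and Crnkl1 -0.016, while the other NTC mRNAs stayed above 0. With all libraries 6 of the 9 had both treated libraries above both untreated ones, as had 21.5% of all genes and 27.6% of those in the same range of expression. None of the 9 passed the test. Not every role was alike in this line. Above 0 were 3 of the 7 LSm mRNAs (median log2 fold change -0.054) and 2 of the 5 factors of the activated spliceosome (median -0.025).

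Isy1, which sits near the catalytic RNA at the first splicing step, had the lowest p of the 45 for the difference between the lines' responses. It measured 35.7 and 28.7 CPM with DMSO and 25.3 and 23.3 CPM with dTAG-13 in the DHX35-dTAG line. In the GPATCH1-dTAG line it measured 24.2 and 28.3 CPM with DMSO and 29.4 and 30.1 CPM with dTAG-13. Treated libraries were the lower ones in the first line and the higher ones in the second, without overlap in either. The log2 fold changes were -0.40 ± 0.13 and 0.18 ± 0.13 (SE), and their difference 0.59, with an adjusted p of 0.862 by edgeR's quasi-likelihood test, Benjamini-Hochberg adjusted. With replicate 1 of DHX35-dTAG with DMSO left out, the change in the DHX35-dTAG line was -0.235 and the difference 0.43, with an adjusted p of 0.703 by the same edgeR test. The unadjusted p was then 0.00953 in the same edgeR model. The change in the GPATCH1-dTAG line was 0.072 without replicate 1 of its own DMSO group and 0.292 without replicate 2.

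Cwc15, a small NTC protein, had the lowest p among the mRNAs that were higher with dTAG-13 in the DHX35-dTAG line. It measured 27.6 and 29.1 CPM with DMSO and 32.6 and 38.5 CPM with dTAG-13 in the DHX35-dTAG line, and 29.6 and 32.2 CPM with DMSO and 29.2 and 32.8 CPM with dTAG-13 in the GPATCH1-dTAG line. The treated libraries were higher in the DHX35-dTAG line, most of all replicate 2, and overlapped the untreated ones in the other. The log2 fold change in the DHX35-dTAG line was 0.32 ± 0.12 (SE), with an adjusted p of 0.715 by edgeR's quasi-likelihood test. It was 0.29 without replicate 1 of the DMSO group, and ran from 0.205 to 0.44 with each library left out in turn. Plrg1, a WD40 protein that binds CDC5L, measured 79.9 and 77.1 CPM with DMSO and 86.3 and 86.0 CPM with dTAG-13 in the GPATCH1-dTAG line, a log2 fold change of 0.13 ± 0.081 (SE) with an adjusted p of 1.00 by edgeR's test. In the DHX35-dTAG line it measured 84.8 and 79.2 CPM with DMSO and 81.8 and 80.3 CPM with dTAG-13, and the groups overlapped.

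Among the 6 NTR and intron-binding factors Ppil1, a cyclophilin bound to SNW1, was the most abundant at 42.3 ± 4.02 CPM per kb and Rbm22, an RNA-binding protein that contacts U6 and the intron, the least at 10.9 ± 0.959 CPM per kb (SD, n = 8), a ratio of 3.86. Ppil1 measured 82.2 and 105 CPM with DMSO and 113 and 106 CPM with dTAG-13 in the DHX35-dTAG line, and 109 and 105 CPM with DMSO and 112 and 113 CPM with dTAG-13 in the GPATCH1-dTAG line. The low value was once more replicate 1 of DHX35-dTAG with DMSO. The log2 fold change in that line was 0.23 ± 0.11 (SE), with an adjusted p of 0.715 by edgeR's test, and 0.067 without the replicate. Rbm22 measured 47.7 and 58.7 CPM with DMSO and 58.0 and 57.2 CPM with dTAG-13 in the DHX35-dTAG line, and 60.6 and 59.4 CPM with DMSO and 59.8 and 66.1 CPM with dTAG-13 in the GPATCH1-dTAG line, so that the groups overlapped in both.

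Aqr, the helicase of the intron-binding complex, measured 145 and 185 CPM with DMSO and 180 and 185 CPM with dTAG-13 in the DHX35-dTAG line, and 190 and 198 CPM with DMSO and 202 and 213 CPM with dTAG-13 in the GPATCH1-dTAG line. All GPATCH1-dTAG libraries were above all DHX35-dTAG libraries. With DMSO the log2 difference between the lines was 0.24 ± 0.11 (SE), and 0.071 without replicate 1 of DHX35-dTAG with DMSO. In the GPATCH1-dTAG line the fitted changes of all 6 mRNAs of this group with dTAG-13 were above 0 under each scaling tried, from 0.067 to 0.11. With each library left out in turn, Rbm22 fell as low as -0.006 and Ppie to 0, while the other members of this group stayed above 0. With all libraries 4 of the 6 had both treated libraries above both untreated ones, beside the same 21.5% of all genes and 27.6% of those in range. None of the 6 passed the test in either line.

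The 5 factors of the activated spliceosome are found on it before its first catalytic step, and not all of them stay for that step. Cwc22, which loads EIF4A3 onto exons, stood at 11.0 ± 0.560 CPM per kb and Bud13, of the RES complex, at 8.15 ± 0.386 CPM per kb (SD, n = 8), a ratio of 1.35 between the most and the least abundant. With the longest transcript as the length the least abundant was Rnf113a2, at 9.93 CPM per kb, and its ratio to Cwc22 was 2.18. Cwc22 measured 69.1 and 73.0 CPM with DMSO and 71.3 and 76.2 CPM with dTAG-13 in the DHX35-dTAG line, and 77.4 and 80.3 CPM with DMSO and 76.3 and 78.6 CPM with dTAG-13 in the GPATCH1-dTAG line. Bud13 measured 33.0 and 33.7 CPM with DMSO and 35.4 and 33.2 CPM with dTAG-13 in the DHX35-dTAG line, and 36.6 and 35.3 CPM with DMSO and 37.0 and 37.0 CPM with dTAG-13 in the GPATCH1-dTAG line. Treated and untreated libraries overlapped for Cwc22 in both lines and for Bud13 in the DHX35-dTAG line.

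The other 3 genes of this role have low counts. Cwc27, a cyclophilin-like protein, measured 25.4 and 28.02 CPM with DMSO and 25.6 and 30.8 CPM with dTAG-13 in the DHX35-dTAG line, and 28.7 and 30.9 CPM with DMSO and 26.9 and 28.1 CPM with dTAG-13 in the GPATCH1-dTAG line. Ccdc12 measured 28.8 and 22.9 CPM with DMSO and 21.9 and 23.4 CPM with dTAG-13 in the DHX35-dTAG line, and 19.2 and 19.6 CPM with DMSO and 23.9 and 20.2 CPM with dTAG-13 in the GPATCH1-dTAG line. In the GPATCH1-dTAG line the treated libraries were thus the lower ones for Cwc27 and the higher ones for Ccdc12, without overlap. Rnf113a2, a zinc-finger protein and intronless copy of Rnf113a1, measured 15.1 and 13.9 CPM with DMSO and 13.4 and 15.6 CPM with dTAG-13 in the DHX35-dTAG line, and 13.7 and 13.9 CPM with DMSO and 11.7 and 12.6 CPM with dTAG-13 in the GPATCH1-dTAG line. It was the mRNA with the lowest p among those lower with dTAG-13 in the GPATCH1-dTAG line, at a log2 fold change of -0.18 ± 0.13 (SE) and an adjusted p of 1.00 by edgeR's test.

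Among the 6 catalytic and late factors Cactin stood at 22.9 ± 1.498 CPM per kb and Cdc40, the second-step factor known in yeast as Prp17, at 4.72 ± 0.440 CPM per kb (SD, n = 8), a ratio of 4.85. With the longest transcript as the length Slu7, a second-step factor, was the least abundant instead, at 9.61 CPM per kb, and the ratio was 2.50. Cactin measured 61.9 and 64.7 CPM with DMSO and 69.8 and 59.4 CPM with dTAG-13 in the DHX35-dTAG line, and 66.0 and 61.4 CPM with DMSO and 72.0 and 65.5 CPM with dTAG-13 in the GPATCH1-dTAG line. Cdc40 measured 33.0 and 37.9 CPM with DMSO and 35.5 and 38.4 CPM with dTAG-13 in the DHX35-dTAG line, and 37.6 and 41.1 CPM with DMSO and 43.1 and 43.2 CPM with dTAG-13 in the GPATCH1-dTAG line. Cactin overlapped between treatments in both lines, and Cdc40 in the DHX35-dTAG line. Both treated libraries of Cdc40 were above both untreated libraries in the GPATCH1-dTAG line. None of the 6 passed the test in either line.

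The lines were also compared with each other in DMSO, a comparison that shares its DMSO libraries with those above. Here 0 of 45 passed edgeR's quasi-likelihood test, beside 0.0916% of all genes, and DESeq2 called 0 of 45. At an unadjusted p under 0.05 there were 6 of 45, against 12.9% of all genes: Prpf3 and Prpf8 were higher in the GPATCH1-dTAG line, and Ccdc12, Lsm6, Lsm8 and Snw1 lower. Both GPATCH1-dTAG libraries were above both DHX35-dTAG libraries for 17 of 45 (37.8%), where 21.8% of all genes and 24.8% of those in the same range of expression were. They were below them for 10 (22.2%), where 21.3% of all genes and 19.8% of those in that range were. Without replicate 1 of DHX35-dTAG with DMSO, 0 of 45 passed edgeR's test, beside 0.71% of all genes, and 4 had an unadjusted p under 0.05, against 10.1% of all genes. These were Prpf3, Prpf8 and Sart1, higher in the GPATCH1-dTAG line, and Snw1, lower. Sart1 was not among the 6 with all libraries, where its log2 difference was -0.38, against 0.16 here, and Ccdc12, Lsm6 and Lsm8 were no longer past the threshold. The log2 differences ran from -0.24 to 0.25, and the median of the LSm ring went from -0.36 to 0.0215. Without replicate 2 of that group, 16 of the 45 (35.6%) passed, as did 5887 genes in all (34.3%).

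A wider list of 49 other spliceosome genes, all of them tested, was used as a neighbour set. By edgeR's quasi-likelihood test 0 of 49 passed after dTAG-13 in the DHX35-dTAG line and 0 of 49 in the GPATCH1-dTAG line, with 2 and 1 (Cd2bp2) at an unadjusted p under 0.05. Their median log2 fold changes were 0.0031 and 0.049, the latter close to the 0.048 of the 45. Between the lines with DMSO only Gpatch1 itself passed, 1 of 49.

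Per length of exon, the 45 mRNAs were abundant. Their median was 17.3 CPM per kb, where the median of the 12776 tested protein-coding genes was 5.22, and 43 of 45 were above that. With the longest annotated transcript as the length instead of all annotated exons the median of the 45 was 24, and 16 of them moved by more than 5 places in the order. Most were steady from library to library: over the 7 libraries other than replicate 1 of DHX35-dTAG with DMSO, 43 of 45 had a coefficient of variation under 10%, with a median of 5.60% against 6.02% for genes in the same range of expression. Over all 8 libraries 32 of 45 did, and the median was 7.38% against 8.67%. The highest over 8 libraries was that of Lsm8 at 30.8%, and the lowest that of Xab2, the NTC protein known in yeast as Syf1, at 3.31%.

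The genes lie on 15 chromosomes, and their annotated transcripts have up to 43 exons, with a median of 10 for the transcript with the most exons. Rnf113a2 alone has a single exon. How far reads could be shared with other genes was checked on stretches of 100 bases in the annotated transcripts. For 24 of the 45 no stretch also occurs in the transcripts of another gene, and for 7 over 10% do: Snw1 (42.04%, with the overlapping gene Slirp), Ppih (37.7%), Eftud2 (23.3%), Cdc5l (20.35%), Prpf31 (14.05%), Lsm5 (11.8%) and Lsm7 (10.03%). Exons of 15 of the 45 overlap those of another annotated gene. Among them are Isy1 (9.37% of stretches shared) and Txnl4a (9.50%), the least abundant per length of the NTC and U5 groups. Counts of these genes are less certain, since neither the counting program nor its strand setting is given in the sources used here. Lsm4, Lsm8 and Rnf113a2 share no such stretch.

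The promoters were examined for what the genes have in common at their starts. RefSeq promoter sequences (GRCm38.p6, 250 bases before to 50 after the gene start) were matched for 34 of the 45 genes, with 39 windows. The letters CCGGAAG, the core bound by ETS-family factors, occur on either strand in a window of 15 of the 34 genes (44.1%), where 19.7% of the 10835 tested genes with a promoter and 9.93% of all 27025 genes have them. The SP-type letters GGGCGG occur for 58.8% of the 34 and 68.8% of the tested genes, and TATAAA for 8.82% and 8.68%. The 15 genes hold 23 matches of CCGGAAG, 20 of them within 100 bases of the RefSeq start. These shares were not set against genes in the same range of expression, and the 45 are abundant mRNAs. A match of letters is a description and was not tied to any measured binding.

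To show how the letters sit, a stretch of 27 bases around the match nearest the RefSeq start is given for the most abundant gene of each role that has a match. Capitals mark CCGGAAG or, where it lies on the opposite strand, its complement CTTCCGG, and each stretch reads along the strand of its gene in GRCm38.p6.
Prpf6, chr2:181601330-181601356, plus strand: cagctctctaCTTCCGGtgcgcgggtg
Ppih, chr4:119320492-119320518, minus strand: ggacctgccaCCGGAAGccgggtttct
Sart1, chr19:5388680-5388706, minus strand: gtcgcgcgacCCGGAAGcgttcccatt
Lsm5, chr6:56704666-56704692, minus strand: tccttagccaCTTCCGGcgtggccatg
Prpf19, chr19:10895153-10895179, plus strand: ggagcgctcgCCGGAAGaagccgagcc
Ppil1, chr17:29263954-29263980, minus strand: gttaactccgCCGGAAGtagtgattgc
Ccdc12, chr9:110656449-110656475, plus strand: gttctcagggCTTCCGGctctccattg
Cwc25, chr11:97766580-97766606, minus strand: tgacaccaccCCGGAAGtgcgagctag
The RefSeq start of Prpf6 lies 9451 bases downstream of the outermost start annotated by GENCODE, and that of Ppil1 215 bases. Beyond the 7 letters the stretches differ from gene to gene. The genes shown include Sart1, high in replicate 1 of DHX35-dTAG with DMSO, and Ppil1, low in it. Whether the letters go with the levels in that library was not tested.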

How the data were processed

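The authors deposited raw read counts per gene, 1 table per library, and these counts were used as deposited. The submitters' notes name FastQC 0.11.9, Trim Galore 0.6.6, STAR 2.7.5c and DESeq2 1.26.0 and the builds mm10 and, for a spike-in of human DLD-1 RNA, hg19; the counting program, its annotation and its strand setting are not given in the sources used here. Ribosomal RNA was removed and a stranded kit used.

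Genes were filtered with filterByExpr over the 4 groups, scaled by TMM and fitted with edgeR 4.0.16 (R 4.3.3) in 1 quasi-likelihood model of all 8 libraries with a term per group; p-values were adjusted by Benjamini-Hochberg over all 16371 genes, with a threshold of 0.05. Standard errors were derived from the fold change and its F statistic, and 95% intervals from the t distribution. The fitting code was tested on simulated data for the dTAG-13 comparison in the DHX35-dTAG line. There 29 of 200 genes given a log2 change of 0.5 passed, and 144 of 200 given a log2 change of 1, so changes of the smaller size were mostly missed. DESeq2 1.42.0 was an alternative, beside other scalings and filters, a replicate block and leaving out each library. Exon lengths came from GENCODE M21.

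The members and lists were chosen with earlier results of these data known. Named with all library values are members past the threshold, the 3 with the lowest p in each direction of each comparison, the most and least abundant per length in each role, 27 distinct members in all, and the tagged genes. Sart1, Lsm1, Lsm3, Snw1, Xab2, Prpf4, Slu7, the genes outside the list and the members in the promoter and shared-sequence lists were named after their values were seen.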

Additional observations from a re-analysis of the deposited data

Results flagged for a closer look

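For 3 of the 45 mRNAs both treated libraries lay above or below both DMSO libraries in the DHX35-dTAG line and on the opposite side in the GPATCH1-dTAG line, which is 6.67% of them, where 6.21% of all tested genes did so. For Isy1 the log2 response in the GPATCH1-dTAG line exceeded that in the DHX35-dTAG line by 0.585, for Lsm7 by 0.565 and for Ppih by 0.188. Each difference was tested in the model of all libraries and did not pass, with an adjusted p of 0.862 by edgeR's quasi-likelihood test, Benjamini-Hochberg adjusted. Without replicate 1 of DHX35-dTAG with DMSO the differences were 0.425, 0.195 and 0.197 in the same order, so that of Lsm7 rests mostly on that library.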

How the results depend on the processing

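The counts depend on the filter and on the DMSO libraries of the DHX35-dTAG line. With no filter on low counts, 1 of the 45 (Lsm4) passed for dTAG-13 in the DHX35-dTAG line and among 345 genes in all, 0 among 21 genes in the GPATCH1-dTAG line, 1 (Lsm4) among 140 genes for the difference of the responses, and 3 (Prpf8, Lsm4, Lsm8) among 986 genes between the lines. DESeq2 called 1, 8 and 45 genes in all for the DHX35-dTAG response, the difference and the lines, and none of the 45. With only the 4 libraries compared, 1, 127 and 2 genes passed for the responses in the DHX35-dTAG and GPATCH1-dTAG lines and between the lines, where the model of all libraries called 0, 0 and 15. With at least 10 counts required in every library, 4 genes passed between the lines.

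Leaving out each library in turn gave 0 to 17 of the 45 and 0 to 4949 of all genes for the DHX35-dTAG response, 0 to 51 of all genes for the GPATCH1-dTAG response, 0 to 11 of the 45 and 0 to 3592 of all genes for the difference, and 0 to 16 of the 45 and 4 to 5887 of all genes between the lines. The highest counts came without replicate 2 of DHX35-dTAG with DMSO, or for the GPATCH1-dTAG response without either DMSO replicate of the DHX35-dTAG line. A library left alone in its group was assumed to vary like the others. The median log2 fold change of the 45 ran from 0.001 to 0.065 for the DHX35-dTAG response and from -0.024 to 0.037 for the difference. Lsm4 in the DHX35-dTAG line ran from -0.939 to 0.052 and Sart1 from -0.743 to 0.181, the sign turning without replicate 1 of the DMSO group.

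With a replicate block, 2 genes passed for the difference, none of the 45, and no other count moved by over 1.5 times. Replicate numbers share no stated origin, and the correlations of the replicate differences between groups were 0.0372 to 0.230. With the longest transcript as the length, the median level of the 45 was 24 CPM per kb. The cause of these changes was not tested. The DESeq2 size factors in edgeR, and leaving out the 2 most abundant genes, an alternative chosen after seeing the data, changed no call of the 45.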
